A study of Mus musculus with 4 samples.

Results

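EN4 is 1 of 13 subtypes of excitatory neurons that the authors' annotation distinguishes in the developing mouse superior colliculus. Its members are the nuclei that carry EN4 in the deposited subtype column, and they number 306 of 9724 nuclei and 306 of 4093 excitatory neurons. Single-nucleus RNA sequencing was done on superior colliculus dissected from C57BL/6J mice, for which the labels name no allele and no treatment, at embryonic day 19 (E19) and postnatal days 4, 8 and 21 (P4, P8 and P21). Each stage is 1 library of tissue pooled from several animals. Stages can therefore be compared only as single libraries, without replicates: no p-value was computed, and the intervals cover counting error only.

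The superior colliculus is a layered midbrain centre that receives input from the retina and other senses and drives orienting movements. Its excitatory neurons release glutamate, which they load into vesicles with the transporter encoded by Slc17a6, and different types lie in different layers and send axons to different targets. Around and after birth these neurons shift from extending axons to building and refining synapses.

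The label was checked against transmitter genes, in UMIs (unique molecular identifiers, each counting 1 captured RNA molecule) summed over EN4 nuclei and divided by the total UMIs of those nuclei (CPM, counts per 1000000 UMIs). Slc17a6 stood at 390, 278, 193 and 172 CPM at E19, P4, P8 and P21 in EN4. The mean of the other excitatory subtypes, each weighted alike, was 284, 241, 184 and 178 CPM, and all inhibitory neurons together had 46.3, 38.8, 19.8 and 8.32 CPM. EN4 thus carried the marker at the level of its class in each library, above the inhibitory neurons. Slc17a7, the vesicular glutamate transporter of most cortical neurons, had no UMI in EN4 in any library, and Slc17a8, another such transporter, stayed at or below 2.10 CPM. Gad1, an enzyme gene of GABA synthesis, had 10.8 to 23.5 CPM in EN4 and 236 to 283 CPM in inhibitory neurons. Gad2, its partner, had 8.39 to 16.0 CPM against 366 to 557 CPM, and Slc6a5, the glycine transporter gene, was at 0 in EN4.

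EN4 was a small subtype, and its share of the excitatory nuclei was higher in the P8 and P21 libraries than in the E19 and P4 libraries. The 4 libraries held 78, 62, 94 and 72 EN4 nuclei in order of age. At E19 that was 5.83% of the 1338 excitatory neurons (95% Clopper-Pearson interval 4.63 to 7.22%), and the P4 share was 5.14% of 1206 (3.96 to 6.54%). The P8 share was 10.8% of 867 (8.85 to 13.1%) and the P21 share 10.6% of 682 (8.35 to 13.1%). The intervals of E19 and P4 overlap, those of P8 and P21 overlap, and the earlier pair lies below the later pair. Of all nuclei, however, EN4 made up 3.02%, 2.60%, 3.75% and 3.20%, and these 4 intervals overlap. The part of the falling excitatory total in this was not tested.

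**Figure D1:**
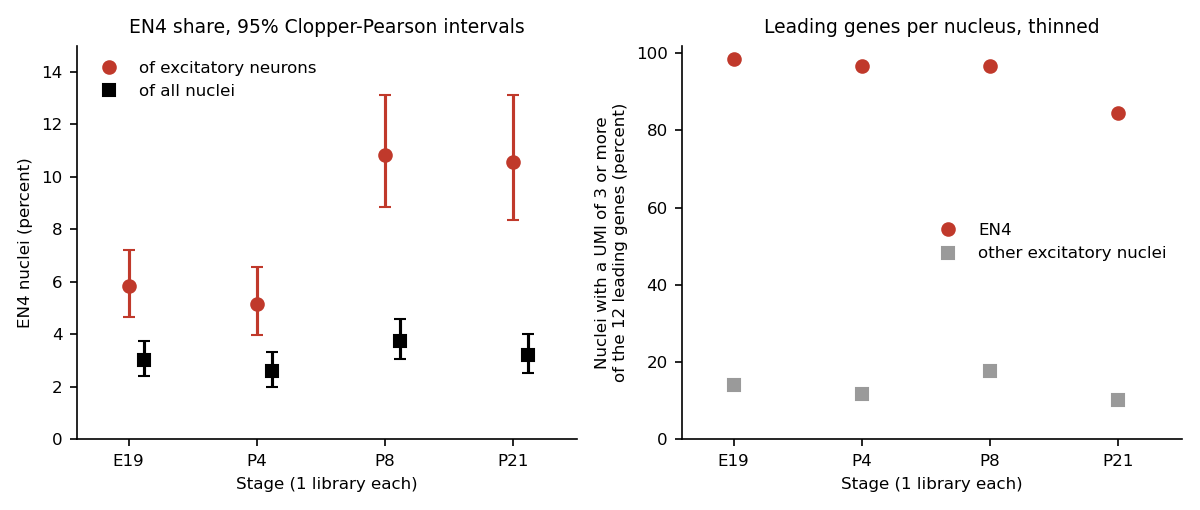
Left, EN4 nuclei as a percent of excitatory neurons (red circles) and of all nuclei (black squares) at each stage, with 95% Clopper-Pearson intervals. Right, percent of nuclei with a UMI of at least 3 of the 12 leading EN4 genes after thinning each nucleus to 4000 UMIs, in EN4 (red circles, 84.5 to 98.6%) and in other excitatory nuclei (grey squares, 10.1 to 17.6%).

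The authors' other labels split EN4 in different ways. In the reference label set named Vectorseq, 293 of 306 EN4 nuclei (95.8%) carried label 7, and of the 316 nuclei in the series with that label 92.7% were EN4. In the set named Transseq, 162 of 305 labelled EN4 nuclei were ESC1 and 135 were ESC2. The ESC1 share was 75.3%, 59.7%, 48.9% and 29.2% at E19, P4, P8 and P21, while the ESC2 share was 23.4%, 37.1%, 47.9% and 68.1%. Label 7 therefore covered nearly the same nuclei as EN4 over the series as a whole. By stage it was carried by 89.7%, 95.2%, 98.9% and 98.6% of EN4 nuclei at E19, P4, P8 and P21. The balance of the Transseq labels within EN4 differed more from stage to stage. By cluster number, 259 EN4 nuclei were in cluster 12, whose 283 nuclei were 91.5% EN4, and 35 were in cluster 0. At E19 67.9% of EN4 nuclei were in cluster 12, against 87.1% at P4, 91.5% at P8 and 91.7% at P21.

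Median depth in EN4 was 6876, 9810, 14119 and 17474 UMIs per nucleus at E19, P4, P8 and P21, and summed EN4 profiles held between 563588 and 1430793 UMIs. The other excitatory nuclei had medians of 8152, 11857, 14170 and 19815 UMIs. Between 5.13% and 11.3% of EN4 nuclei per library had 2 or more UMIs of Gad1, Gad2 and Slc32a1 together, against 91.6 to 98.4% of inhibitory neurons and 7.30 to 11.8% of the other excitatory nuclei. In all, 18 nuclei of the series had a barcode found in more than 1 library, and 1 of them was EN4. Summed astrocyte markers stood between 90.5 and 142 CPM in EN4 and between 91.4 and 178 CPM in the other subtypes, against 2835 to 9027 CPM in astrocytes. Summed oligodendrocyte lineage markers stood at 85.2, 84.7, 65.0 and 290 CPM in EN4 at E19, P4, P8 and P21. The other subtypes had 84.3, 88.3, 65.3 and 238 CPM, and oligodendrocyte lineage cells 22169 CPM at P21. The part of oligodendrocyte RNA in the higher P21 sum was not tested. Of single members, Mbp stood between 46.1 and 54.1 CPM in EN4, and Mobp was at 0 up to P8 and at 12.4 CPM at P21, where the other subtypes had 10.7 CPM.

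To describe what sets EN4 apart, its CPM was divided within each library by the mean of the other excitatory subtypes with at least 20 nuclei there, which left 12 at the earlier stages (E19, P4) and 10 at the later ones (P8, P21). Ratios are on the log2 scale with 5 CPM added to both sides, which understates differences of low genes. Among 3996 genes with a mean of at least 50 CPM on either side, 26 (0.651%) were at least 2-fold higher in EN4 in each of the 4 libraries and 38 (0.951%) at least 2-fold lower. The subtypes were made from these same counts, so these numbers describe EN4 and test nothing. The genes on the higher side were transcription factors, surface and secreted proteins, signalling enzymes and long noncoding RNAs.

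Among the transcription factors, Tfap2b encodes an AP-2 factor, a family of DNA-binding proteins used in neural crest and midbrain development. In EN4 it stood at 837, 639, 577 and 164 CPM at E19, P4, P8 and P21, against 179, 103, 121 and 42.8 CPM in the mean of the others. EN4 was rank 2 at E19, rank 1 at P4 and P8 and rank 3 at P21, and the highest other subtype was EN13 in each library (899, 508, 516 and 200 CPM). EN3 also had much Tfap2b, with 512, 370, 390 and 172 CPM. Tfap2d, a second AP-2 gene, had 380, 243, 216 and 120 CPM in EN4 against 155, 91.0, 69.7 and 50.5 CPM, and EN4 was second among the subtypes in all 4 libraries. The AP-2 genes are neighbours on mouse chromosome 1 (GRCm38), with Tfap2d at 19103022 to 19166346 and Tfap2b at 19208914 to 19238576, both on the plus strand and 42568 bases apart. Tfap2b was also found outside excitatory neurons, and Tfap2d much less so. After thinning to 4000 UMIs, Tfap2b had a UMI in 90.4%, 90.3%, 86.2% and 53.5% of EN4 nuclei, in 45.4%, 38.0%, 39.3% and 25.7% of inhibitory nuclei and in 26.3%, 17.5%, 16.8% and 2.53% of astrocytes. Tfap2d had one in 61.6%, 46.8%, 39.4% and 31.0% of EN4 nuclei and in 6.65%, 1.61%, 1.31% and 0.821% of inhibitory nuclei. Without thinning the EN4 shares were 90.1 to 98.9% for Tfap2b and 74.2 to 81.9% for Tfap2d. Thinning kept 73, 62, 94 and 71 EN4 nuclei, whose median depths before thinning were 7208, 9810, 14119 and 17618 UMIs, and 767, 682, 1069 and 731 inhibitory nuclei with medians of 6486, 8038, 9369 and 14098 UMIs.

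Because these neighbouring genes were both high in EN4 and encode factors with a shared motif, the 250 bases before their start sites are shown, followed by those of Itga8, an EN4 gene whose window holds that motif. Tfap2d has 3 RefSeq start windows, none with the motif, and the most upstream is printed. The windows are from RefSeq on GRCm38.p6, 5′ to 3′ on the strand of the gene, and the RefSeq start of Tfap2b lies inside the GENCODE span given above. Capitals mark GCCNNNGGC, the AP-2 core motif, which reads the same on both strands.
Tfap2d, chr1:19102772-19103021, plus strand: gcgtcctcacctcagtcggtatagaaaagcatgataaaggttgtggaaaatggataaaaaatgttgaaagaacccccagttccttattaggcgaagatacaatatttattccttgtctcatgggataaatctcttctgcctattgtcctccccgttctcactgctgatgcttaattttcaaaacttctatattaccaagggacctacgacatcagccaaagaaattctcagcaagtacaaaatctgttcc
Tfap2b, chr1:19211804-19212053, plus strand: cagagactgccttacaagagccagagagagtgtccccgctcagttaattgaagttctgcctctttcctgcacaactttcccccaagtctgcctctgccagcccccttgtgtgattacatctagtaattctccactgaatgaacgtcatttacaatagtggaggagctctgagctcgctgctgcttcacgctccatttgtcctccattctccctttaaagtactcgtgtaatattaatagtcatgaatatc
Itga8, chr2:12301945-12302194, minus strand: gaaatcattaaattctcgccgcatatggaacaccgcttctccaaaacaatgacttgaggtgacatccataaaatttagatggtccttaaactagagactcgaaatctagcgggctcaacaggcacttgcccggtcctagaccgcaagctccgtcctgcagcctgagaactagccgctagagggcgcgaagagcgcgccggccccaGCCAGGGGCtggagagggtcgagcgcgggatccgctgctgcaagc
No capitals appear in the windows of Tfap2d and Tfap2b, so those letters do not occur there. Of the 26 genes higher in EN4, 21 had at least 1 such window, and 7 of these (33.3%) held the motif, against 27.2% of the 3082 tested genes with a window and 15.4% of all 27025 genes in the table. The share among EN4 genes was thus near that of the genes tested, and a match is a description of letters only.

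Tshz3, a teashirt zinc-finger factor, had 708 CPM in EN4 at E19 against 117 CPM in the others. It had 461, 370 and 298 CPM at P4, P8 and P21 against 95.1, 86.0 and 90.6 CPM, and EN4 ranked first in all 4 libraries. The gene lies on chromosome 7 at 36698118 to 36773553, where 4 annotated transcripts, E230020A03Rik among them, overlap it on its own strand. Lmo4, a LIM-only cofactor without a DNA-binding domain, was also highest in EN4 in each library, with 154, 135, 138 and 85.0 CPM against 32.9, 41.7, 29.5 and 37.1 CPM. Zeb2, a zinc-finger homeobox repressor, had 727, 686, 628 and 358 CPM against 298, 215, 277 and 134 CPM, but EN4 had rank 3 at E19, P4 and P8 and rank 2 at P21. Mkx, a homeobox gene, had 23.1, 62.8, 68.5 and 109 CPM against 2.03, 9.01, 17.3 and 49.8 CPM, so that its level in the other subtypes came closer to EN4 at P21.

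Surface and adhesion proteins formed the next group. Mdga1, a membrane-anchored immunoglobulin protein that binds neuroligins and limits their contact with neurexins, had 532, 386, 352 and 116 CPM in EN4. The others had 104, 88.6, 85.5 and 26.2 CPM, and no other subtype exceeded EN4 in any library. Its detection at equal depth was 79.5%, 72.6%, 78.7% and 35.2% of EN4 nuclei against 28.6%, 24.6%, 25.1% and 9.93% of other excitatory nuclei, and 74.6 to 96.8% of EN4 nuclei without thinning. Inhibitory nuclei showed it in 7.66 to 17.6% at equal depth. Mdga1 lies on chromosome 17 at 29827949 to 29970087. Itga8, the integrin alpha-8 chain, had 79.8, 111, 101 and 46.4 CPM against 12.1, 16.8, 18.2 and 9.76 CPM. Cntnap3, a member of the contactin-associated protein family, had 35.5, 149, 148 and 65.7 CPM at E19, P4, P8 and P21 against 7.29, 20.3, 31.1 and 16.0 CPM. EN4 ranked first for Itga8 and Cntnap3 in each library, although at E19 EN10 came within 1 CPM for Cntnap3 (34.8 CPM).

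Receptors and channels included Prlr and Piezo2. Prlr, the prolactin receptor, had 117, 110, 129 and 65.7 CPM at E19, P4, P8 and P21 against 17.4, 21.1, 18.03 and 11.7 CPM, and the highest other subtype never exceeded 62.7 CPM. EN1 had 55.4, 62.7, 44.0 and 41.1 CPM of Prlr, EN3 had 28.3 to 62.0 CPM and EN2 14.1 to 42.6 CPM. EN5 and EN9 had at most 2.22 CPM, and such low subtypes bring down the mean. The mean log2 ratio of Prlr to the others was 2.30, and it lies on chromosome 15 at 10177238 to 10349180. Piezo2, a cation channel opened by mechanical force, had 271, 257, 240 and 75.0 CPM against 49.2, 58.1, 54.0 and 13.4 CPM. EN13 was close to it (247, 346, 226 and 50.4 CPM) and above it at P4. At equal depth Prlr had a UMI in 19.7 to 30.6% of EN4 nuclei per library against 5.46 to 10.1% of other excitatory and 3.83 to 7.48% of inhibitory nuclei, so most EN4 nuclei showed none at this depth, and without thinning the EN4 share was 31.5 to 37.2%.

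Among signalling enzymes, Arhgap15 and Plce1 stood out. Arhgap15, which switches off the small GTPase Rac, had 83.4, 130, 137 and 139 CPM against 11.7, 22.0, 20.5 and 21.05 CPM. Plce1, a phospholipase C that acts downstream of Ras-family proteins, had 26.6, 107, 210 and 165 CPM at E19, P4, P8 and P21 against 4.16, 11.6, 13.7 and 19.1 CPM. EN4 was first for each in every library, and the level of Plce1 in EN4 at P8 was the farthest above the others, with a log2 ratio of 3.52. Plce1 was also an astrocyte gene here, with a UMI in 75.2 to 86.9% of thinned astrocytes, but inhibitory nuclei showed it in 3.13 to 4.79%. EN4 nuclei showed it in 9.59%, 25.8%, 39.4% and 31.0%, or 16.4 to 63.4% without thinning. The summed astrocyte markers of EN4 stood at 142, 121, 120 and 90.5 CPM, and the part of astrocyte RNA in its Plce1 level was not tested. Arhgap15 is on chromosome 2 at 43748824 to 44395953, 587679 bases from Zeb2, and Plce1 on chromosome 19 at 38481109 to 38785030.

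The widest gap on the higher side belonged to a long noncoding RNA. D130009I18Rik, annotated as a lincRNA on chromosome 14 at 104612791 to 104966783, had 461, 513, 397 and 290 CPM at E19, P4, P8 and P21. The others had 40.6, 51.2, 31.3 and 27.4 CPM, so the log2 ratio stayed between 3.19 and 3.47, and only EN10 at P4 exceeded 119 CPM (275 CPM). It had a UMI in 52.1%, 59.7%, 48.9% and 52.1% of thinned EN4 nuclei against 6.29 to 9.40% of other excitatory nuclei and 0.410 to 1.69% of inhibitory nuclei, and in 58.9 to 74.6% of EN4 nuclei without thinning. B230323A14Rik, antisense to Foxb1, was instead shared with EN3: EN4 had 403, 256, 268 and 166 CPM and EN3 had 543, 472, 558 and 420 CPM. It was also seen in 40.6%, 29.2%, 43.2% and 74.3% of thinned astrocytes, against 38.0 to 56.2% of EN4 nuclei (38.0% at P21) and at most 1.96% of inhibitory nuclei. Another lincRNA, 2600014E21Rik, had 72.7, 61.2, 84.6 and 174 CPM in EN4, and EN5 at P4 (60.0 CPM) and EN13 at P21 (173.9 CPM) nearly equalled it. 2600014E21Rik overlaps Gm13653 on its own strand, and no source used here says if strand entered the counting, so such overlapping genes may share UMIs.

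The other higher genes had smaller gaps. Reln, the secreted glycoprotein reelin that guides neuronal positioning, had 614, 599, 628 and 482 CPM in EN4 against 229, 204, 207 and 150 CPM. Slit3, a secreted guidance cue, had 326, 282, 321 and 229 CPM against 124, 119, 109 and 89.5 CPM. Others were the FERM-domain gene Frmd6, the microtubule-severing enzyme gene Fign, the SNARE-binding gene Stxbp6, the Golgi mannosidase gene Man1a, the procollagen protease gene Adamts2, the Wnt-pathway modulator gene Dkk3 and the transcript Gm28175, with mean log2 ratios from 1.17 (Adamts2) to 2.04 (Frmd6). Of the 26 genes, 13 were highest in EN4 in every library, 3 (Tfap2d, Zeb2 and B230323A14Rik) in none, and all 26 were also at least 2-fold above the median other subtype in each library. For the 12 leading genes the highest other subtype was EN13 in 15 of 48 gene and library pairs and EN3 in 11.

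**Figure D2:**
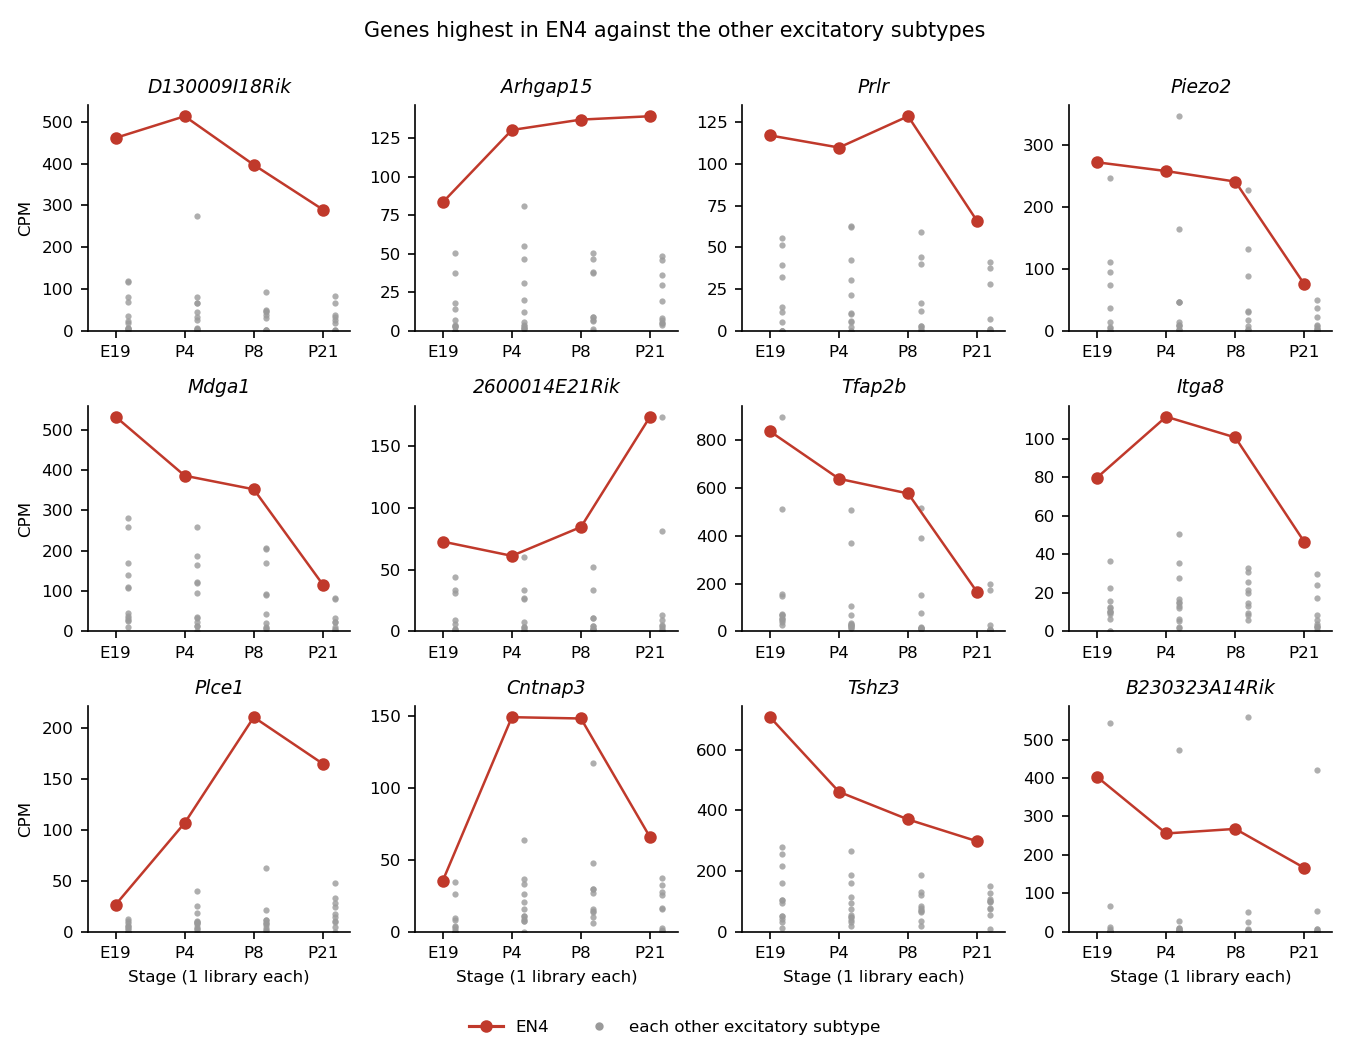
CPM of the 12 leading EN4 genes at each stage, on linear axes that start at 0. EN4 is red and each other excitatory subtype with at least 20 nuclei is a grey point set slightly to the right; EN4 is the outermost point in every library for most genes, while other subtypes reach or pass it for Tfap2b, Piezo2 at P4 and B230323A14Rik.

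On the lower side, the genes were mostly ones that a few other subtypes used heavily. Tcf7l2, a nuclear effector of Wnt signalling, had 47.9, 78.5, 9.09 and 5.41 CPM in EN4 against 631, 534, 250 and 176 CPM, and EN4 ranked 13 of 13 at E19, 12 of 13 at P4 and 11 of 11 at P8 and P21. At equal depth it had a UMI in 23.3%, 27.4%, 2.13% and 4.23% of EN4 nuclei against 65.9%, 71.1%, 35.4% and 36.8% of other excitatory nuclei. Inhibitory nuclei showed it in 30.9%, 38.4%, 7.39% and 8.48%, and the intervals of EN4 and inhibitory nuclei overlap in each library. Without thinning the EN4 shares were 30.1%, 59.7%, 12.8% and 9.86%, and those of inhibitory nuclei 43.4%, 54.8%, 14.7% and 17.6%. Tcf7l2 was also an astrocyte gene here, seen in 91.7 to 94.9% of thinned astrocytes. Sox5, an HMG-box factor, had 35.5, 28.2, 10.5 and 6.19 CPM in EN4 against 167, 222, 180 and 186 CPM.

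Rorb, a nuclear receptor of the retinoid-related orphan family, stood at 79.8, 64.3, 83.9 and 83.5 CPM in EN4 while the mean of the others was 954, 626, 634 and 490 CPM. EN6 was highest with 6848, 3862, 3037 and 1560 CPM, and EN5 followed with 1918, 1371, 1326 and 989 CPM. Bnc2, a zinc-finger gene, likewise had 65.7, 17.3, 41.2 and 31.7 CPM in EN4 against 391, 250, 294 and 201 CPM, with EN6 highest throughout and EN9 next (410 CPM against 795 CPM in EN6 at P21), and Tmem132c had between 5.59 and 16.2 CPM in EN4 with EN12 at 1163 to 1620 CPM. For Tmem132c a single subtype thus stood far above the rest, while several subtypes were high for Rorb and Bnc2.

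Other low genes were lower in EN4 than in nearly all subtypes. Egfem1 had 151, 162, 269 and 158 CPM in EN4 against 1085, 1029, 1328 and 1261 CPM, and EN4 was the lowest subtype in each library. EN4 was also lowest throughout for Hs3st4, which encodes an enzyme that adds sulfate to heparan sulfate chains, with 202, 217, 197 and 128 CPM against 976, 937, 965 and 664 CPM. Fstl4, a follistatin-like gene, had 12.4, 7.85, 9.78 and 44.1 CPM against 96.9, 121, 150 and 180 CPM. Ptprd, a receptor phosphatase that organises synapses, was abundant yet lowest in EN4 in every library, with 2743, 2741, 3122 and 3325 CPM against 6299, 6621, 7130 and 7469 CPM.

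Of the 38 lower genes, EN4 was the lowest subtype in all 4 libraries for 6 (Egfem1, Ptprd, Hs3st4, Pitpnc1, Mast4 and Trpm3) and in none for 17. When EN4 was set against the median other subtype, 13 of the 38 were at least 2-fold lower in every library, in contrast to 26 of 26 on the higher side. Most of the lower side thus depends on the mean, which a few high subtypes can raise.

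**Figure D3:**
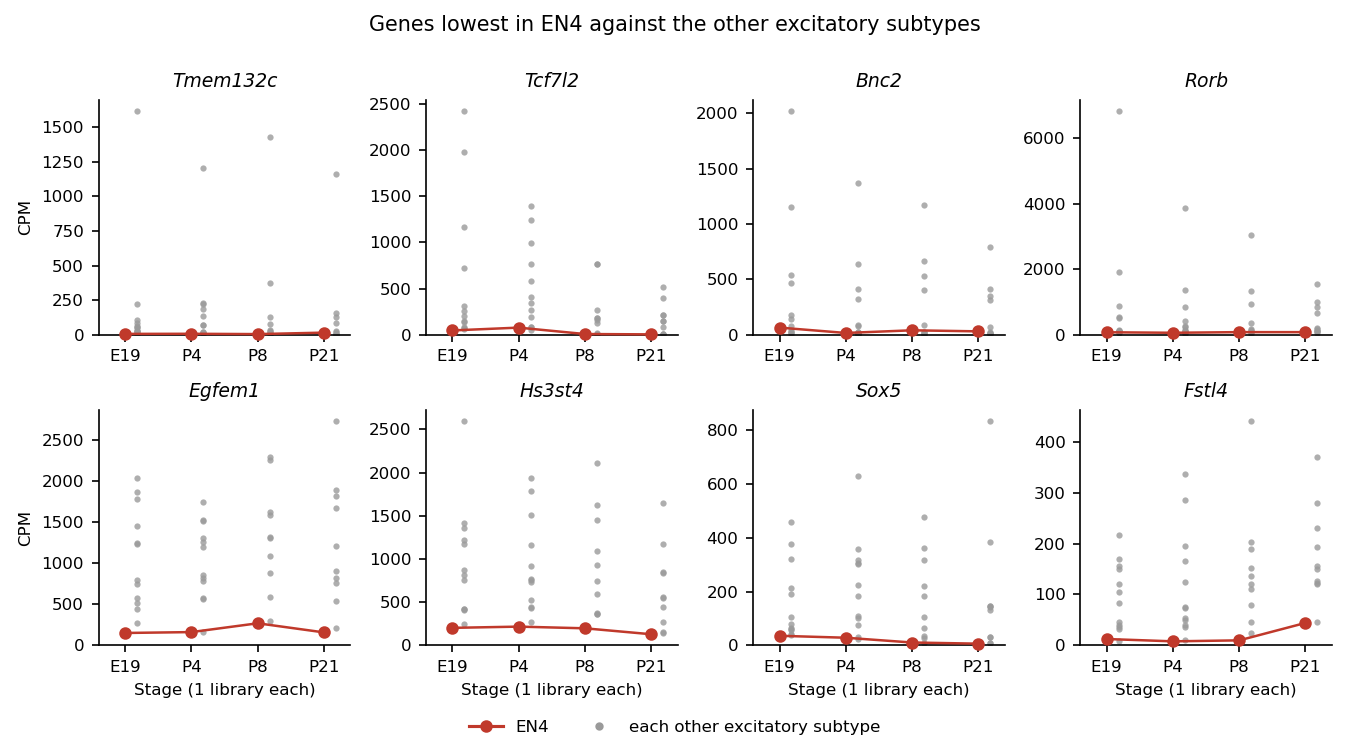
CPM of the 8 genes lowest in EN4 against the other excitatory subtypes, on linear axes that start at 0. EN4 is red and each other subtype a grey point; EN12 stands far above the rest for Tmem132c and several subtypes are high for Bnc2 and Rorb, while Egfem1 and Hs3st4 are lower in EN4 than in all other subtypes.

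By the correlation of log2(CPM + 5) across 10463 genes, which are not independent of each other, the subtypes most like EN4 were EN1 (mean over libraries 0.957), EN3 (0.951) and EN2 (0.939). The next were inhibitory, IN1 (0.934) and IN2 (0.932). The least like of all was also inhibitory, IN12 (0.842), and several other inhibitory subtypes lay below every excitatory one. Among excitatory subtypes the least like were EN6 (0.891) and EN7 (0.889, from E19 and P4 alone). In those libraries EN6 was less like EN4 (0.854 and 0.875) than EN7 (0.879 and 0.900). EN13, which shared several leading genes, correlated at 0.878 at E19 and 0.946 at P21. EN13 had 158022 UMIs at E19 and 574972 at P21, and the part of depth in this difference was not tested. Depth also differed among the excitatory subtypes ranked, with 5054175 UMIs for EN1 at E19. Its part in the ranking was not tested.

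Against EN1, 33 of 4036 genes (0.818%) were at least 2-fold higher in EN4 in every library and 34 (0.842%) lower. B230323A14Rik led the higher side with a mean log2 ratio of 4.07, ahead of D130009I18Rik (3.35), 2600014E21Rik (3.44) and Arhgap15 (3.28) when ranked by their smallest ratio. Tcf7l2, Hs3st4, Bnc2 and Htr2c, a serotonin receptor gene, led the lower side, and Htr2c had 10.6, 28.2, 13.3 and 65.7 CPM in EN4 against 110, 227, 221 and 539 CPM in EN1.

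Against EN3, 37 of 4025 genes (0.919%) were higher and 34 (0.845%) lower. Zeb2 was at 727, 686, 628 and 358 CPM in EN4 and 78.8, 33.2, 58.4 and 33.7 CPM in EN3. Hgf, the gene of hepatocyte growth factor, had 40.8, 126, 149 and 116 CPM in EN4 and 4.50, 8.85, 10.9 and 17.1 CPM in EN3. In the other direction, Esrrb, an orphan nuclear receptor gene, had no UMI in EN4 at E19, P4 and P8 and 0.773 CPM at P21, while EN3 had 85.6, 154, 78.8 and 66.9 CPM. Rxfp2, a receptor gene for insulin-like peptides, also separated them, with at most 4.71 CPM in EN4 and between 39.6 and 115 CPM in EN3.

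Against EN2, 56 of 4055 genes (1.38%) were higher and 34 (0.838%) lower. D130009I18Rik was at most 6.12 CPM in EN2, which gave a mean log2 ratio of 5.59, and Zeb2 followed at 4.45. Tcf7l2 (mean log2 ratio -5.04) and Zfhx3, a large zinc-finger homeobox factor (-3.67), were the other way round, and Zfhx3 had 3428, 1880, 1645 and 1383 CPM in EN2 against 211, 160, 95.1 and 152 CPM in EN4. Arhgap15, 2600014E21Rik and D130009I18Rik were thus above EN1, EN2 and EN3 in every library, and Zeb2 was above EN2 and EN3. Low Tcf7l2 likewise set EN4 apart from EN1, EN2 and EN3.

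Gene lists were used to describe which kinds of genes differed. Of the 40 transcription factors tested, 5 were higher in EN4 in every library (Tfap2b, Tfap2d, Lmo4, Zeb2 and Tshz3) and 7 lower (Meis2, Rorb, Nfib, Tcf7l2, Sox5, Cux2 and Zfhx3), while the median log2 ratio was -0.07 against 0.02 over all genes tested. Of 48 axon guidance genes, Slit3 was higher and none lower. Of 60 synapse organisers, Mdga1 was higher and Ptprd and Nxph1, a neurexin ligand, were lower. None of 26 glutamate receptor genes and none of 33 maturation and growth cone genes was 2-fold different in every library. Of 29 receptor genes for GABA, glycine and neuromodulators, Prlr was higher and Gabra2 and Htr2c were lower.

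The remaining lists had few members past the threshold, where all genes tested gave 0.651% higher and 0.951% lower. Of 23 cadherins and protocadherins none was higher, and Pcdh11x and Pcdh15 were lower. Trpm3, a cation channel gene, was the lower one of 55 ion channel genes, and Reln the higher one of 3 tested genes for neuropeptides and calcium-binding proteins. Below the threshold, Cdh9 (mean log2 ratio 1.15) and Htr2a (1.25), a serotonin receptor gene, were the highest members of their lists, and Grin2a (-1.04) and Grik3 (-1.07) among the lowest glutamate receptor genes. No marker of aminergic and cholinergic neurons, microglia, vascular cells, dividing cells or of stress reached the level needed for testing.

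**Figure D4:**
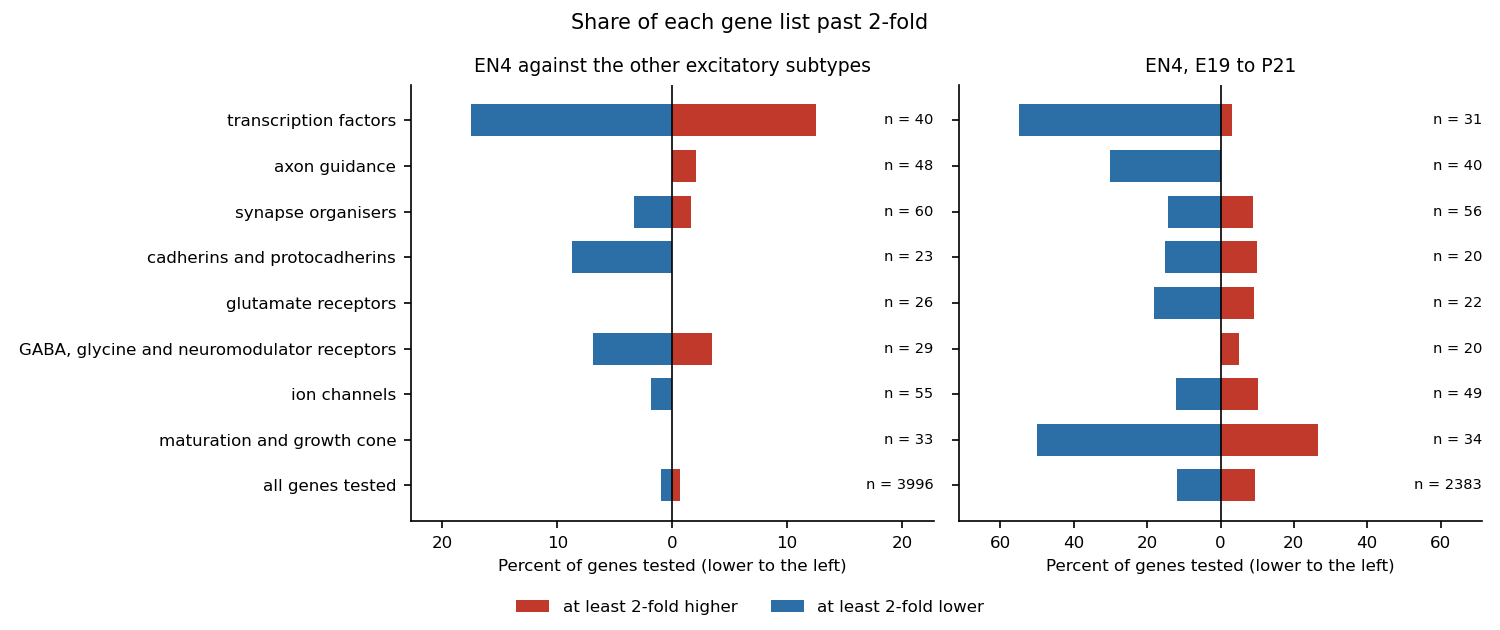
Percent of each gene list at least 2-fold higher (red, to the right) or lower (blue, to the left), with the number of genes tested. Left, EN4 against the other excitatory subtypes in every library, where all genes tested gave 0.651% and 0.951%; right, EN4 from E19 to P21, where they gave 9.27% and 11.8%.

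Across stages, RNAs of immature neurons such as the tubulins Tubb2b and Tubb5 were among those that fell most in EN4. Among genes with at least 100 CPM at the higher stage, 34 of 2201 (1.54%) were at least 2-fold higher at P4 than at E19 and 37 (1.68%) lower. From P4 to P8 the numbers were 7 of 2118 (0.331%) and 25 (1.18%), and from P8 to P21 they were 61 of 2199 (2.77%) and 85 (3.87%). Between E19 and P21 they were 221 of 2383 (9.27%) and 281 (11.8%), and with median-of-ratios scaling 258 and 252, so which side held more genes depended on the scaling. The interval with the most genes past 2-fold was thus P8 to P21, the longest in days, and the one with the fewest was P4 to P8. The counts rest on the settings: with nuclei thinned to 4000 UMIs, 66 genes were higher and 61 lower at P4 than at E19, and 23 higher and 57 lower at P8 than at P4.

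The largest falls were shared with the other excitatory subtypes. Here and below, the mean of the others held 12 subtypes at E19 and P4 but 10 at P8 and P21. The part of this in the changes of the others was not tested. Tubb2b, a tubulin of growing neurites, had 782, 359, 137 and 6.19 CPM at E19, P4, P8 and P21 in EN4, and 770, 380, 140 and 4.85 CPM in the others. Its log2 ratio from E19 to P21 was -6.14 with 5 CPM added to both sides. The counting interval is that of the ratio without the added CPM, and it ran from -8.20 to -5.99. Nnat, an imprinted gene of immature neurons, had 763, 367, 190 and 12.4 CPM, and Tubb5, another tubulin, 538, 300, 107 and 12.4 CPM. Fabp7, a fatty-acid binding protein of radial glia, went from 280 CPM to 5.41 CPM (231 and 1.89 CPM in the others). For these 4 genes the values in EN4 and in the others lay side by side at each stage.

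The largest rises were also seen in the others. BC030499, a protein-coding gene, had no UMI in EN4 at E19 and P4, 2.80 CPM at P8 and 145 CPM at P21, at least 27.2-fold higher at P21 than the 3 counts that a count of 0 at E19 allows. Sgpp2, a sphingosine-1-phosphate phosphatase, likewise had none at E19 and P4, 7.69 CPM at P8 and 121 CPM at P21. Coro6, a coronin that binds actin, went from 1.77 to 128 CPM and the transcript Gm13629 from 5.32 to 184 CPM. The other subtypes reached 79.8, 127, 90.4 and 208 CPM for the 4 genes at P21.

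Between neighbouring stages some changes were larger in EN4 than in the mean of the others. The make-up of EN4 differed too, with 67.9% of its E19 nuclei in cluster 12 against 87.1% at P4. With cluster 12 nuclei alone, 27 of the 34 genes higher at P4 than at E19 were called again, and 27 of the 37 lower. From E19 to P4, Zfp536, a zinc-finger repressor gene, went from 195 to 26.7 CPM in EN4 and from 182 to 142 CPM in the others. Foxo1, a forkhead factor of insulin signalling, went from 117 to 33.0 CPM against 42.1 to 38.1 CPM, and Rarb, a retinoic acid receptor gene, from 126 to 37.7 CPM against 36.9 to 23.0 CPM. Sst, the somatostatin gene, fell alongside the others (115 to 23.5 CPM and 96.9 to 27.0 CPM), with 24.6% of its E19 UMIs from 1 nucleus. On the rising side were AC149090.1, a gene on an unplaced scaffold (117 to 632 CPM, and 80.9 to 453 CPM in the others) and Dync1i1, a dynein chain of axonal transport (63.9 to 262 CPM, and 80.7 to 187 CPM), together with Cntnap3 and Plce1.

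From P4 to P8, Meis2, a TALE homeobox factor, went from 195 to 65.7 CPM in EN4, while the others had 464 and 569 CPM. Tubb5, Tubb2b and H3f3a, a histone variant gene, were the other large falls, and counts of tubulin and histone genes can be split with near-identical copies. Thrb, a thyroid hormone receptor, went from 58.1 to 155 CPM and on to 424 CPM at P21, and the others had 54.5, 70.9 and 238 CPM. Airn, an imprinted noncoding RNA, went from 187 to 438 CPM and was back at 247 CPM at P21, and Tmem132d went from 39.2 to 113 CPM and to 54.1 CPM. Gm28928 went from 148 to 347 CPM but stayed below the others (644 and 1180 CPM).

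From P8 to P21, Zfp57, a zinc-finger protein that keeps imprints, went from 110 to 10.8 CPM in EN4 and from 85.5 to 10.3 CPM in the others. Stac, an adaptor of calcium channels, went from 110 to 12.4 CPM in EN4 and from 159 to 60.6 CPM in the others. Specc1, a cytoskeletal protein gene, went up from 72.0 to 456 CPM, and from 47.3 to 367 CPM in the others. Zfp57 and Specc1 therefore moved the same way in EN4 and in the others, and the level of Stac in EN4 ended lower.

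By list, transcription factors and growth cone genes lay mostly on the lower side from E19 to P21. Of 31 transcription factors tested, 17 were lower at P21 and 1, Zeb1, was higher, with a median log2 ratio of -1.18 in EN4 and -1.04 in the other subtypes against 0.04 over all genes tested in EN4. The EN4 factors Tfap2b, Tfap2d, Tshz3 and Zeb2 were among the 17, with Sox4 and Sox11 of immature neurons. Of 34 maturation and growth cone genes, chosen with the age changes of these data known, 17 were lower (among them Dcx, Gap43 and Stmn2) and 9 higher (among them Snap25, Syt2 and Camk2a).

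In the other lists the counts were smaller. Of 40 axon guidance genes, 12 were lower, including Epha3, Epha7, Ephb1, Ephb2, Nrp1 and L1cam, and none was higher by the 100 CPM rule. Of 56 synapse organisers, 5 were higher (Lrrtm3, Lrrtm4, Adgrb1, Tenm4 and Sparcl1) and 8 lower, Mdga1 among them. Over all genes tested 9.27% were higher and 11.8% lower, and the shares of the synapse organisers, and of the cadherins and ion channels below, lay near these. Of 22 glutamate receptor genes, the NMDA receptor subunit genes Grin1 and Grin2a were higher and Grik1, Grik3, Grm3 and Cacng4 lower. Of 49 ion channel genes, 5 were higher (among them Kcnab1, Kcnc2, Kcnj3 and Scn1a) and 6 lower, of 20 cadherins 2 (Cdh12 and Cdh18) were higher and 3 lower, and of 20 receptor genes for GABA, glycine and neuromodulators Chrm2 was higher. The medians of these 6 lists lay between -0.40 and 0.16, against 0.04 over all genes.

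**Figure D5:**
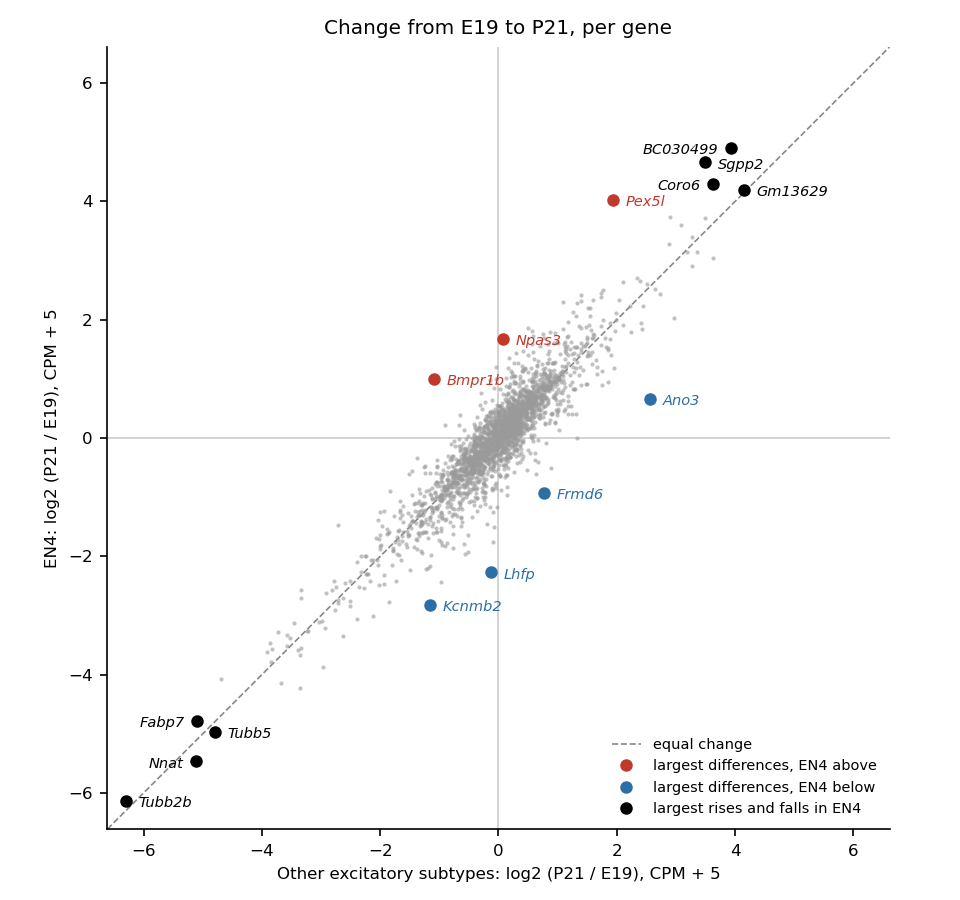
Log2 ratio of P21 to E19 (CPM + 5) for genes tested in EN4 and reported here. EN4 is on the vertical axis and the mean of the other excitatory subtypes (12 at E19, 10 at P21) on the horizontal axis. Most genes follow the dashed line of equal change, including the largest rises and falls (black), and genes far from it are named in red (EN4 above) and blue (EN4 below).

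A few genes took another course in EN4 than in the mean of the others, though single subtypes often went with EN4. They were ranked by that mean, which held 12 subtypes at E19 and 10 at P21. Bmpr1b, a receptor for bone morphogenetic proteins, went from 51.5 to 105, 133 and 108 CPM in EN4 and from 26.9 to 13.5, 6.96 and 9.94 CPM in the others. Astrocytes had 498 to 828 CPM of Bmpr1b, and the summed astrocyte markers of EN4 were at 142 CPM at E19 and 90.5 CPM at P21. The part of astrocyte RNA in the Bmpr1b level of EN4 was not tested. Bmpr1b lies on chromosome 3 at 141837136 to 142169425, on the minus strand.

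Pex5l and Npas3, a neural PAS-domain factor, started low in EN4. Pex5l had 44.4, 168, 366 and 800 CPM in EN4 and 237, 313, 507 and 926 CPM in the others, so that EN4 approached their level. All 10 other subtypes rose for Pex5l, and EN13 rose more (log2 ratio 5.33 against 4.03 in EN4). Npas3 had 74.5, 168, 81.8 and 249 CPM in EN4 and between 435 and 484 CPM in the others, and astrocytes had 6284 CPM at P21. For Npas3, EN2 rose more than EN4 (1.88 against 1.68), and EN6 (1.29) and EN5 (1.15) also rose. On the opposite side, Lhfp went from 176 to 32.5 CPM in EN4 and from 432 to 394 CPM in the others, with 26.3% of its E19 UMIs in EN4 from 1 nucleus. Kcnmb2, an auxiliary subunit of calcium-activated potassium channels, went from 145 to 16.2 CPM against 255 to 112 CPM. Ano3, an anoctamin, started ahead in EN4 (99.4 CPM against 21.6 CPM) and ended level with the others (160 and 153 CPM), and Frmd6 went from 122 to 61.9 CPM against 13.2 to 25.9 CPM. Whether these differences exceed what replicate libraries would give was not tested.

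At the level of single nuclei, with each nucleus thinned to 4000 UMIs, the number of leading genes seen per nucleus was counted. EN4 nuclei had a UMI of a median of 5, 5.5, 5 and 4 of the 12 leading genes at E19, P4, P8 and P21, and other excitatory nuclei a median of 1 in each library. At least 3 were seen in 98.6%, 96.8%, 96.8% and 84.5% of EN4 nuclei against 14.0%, 11.7%, 17.6% and 10.1% of the others. The 12 genes were chosen for their level in EN4, so this number was set by that choice and does not show that they occur together in a nucleus, and the lower values at P21 go with the lower CPM of 8 of the 12 genes at P21 than at E19.

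Other genes varied strongly among EN4 nuclei. Over 2703 genes the median ratio of variance to mean was 1.11, a value near that of pure counting, and the 95th percentile was 2.45. For the same relative spread this ratio is larger in abundant genes, and the ranking was not matched for level. Genes entered from a mean of 0.2 UMIs per thinned nucleus, while Tenm2 had means of 22.5 to 30.3 UMIs. The most variable were Tenm3 (14.4) and Tenm2 (10.7), teneurins that pair with latrophilins across synapses, Pcdh9 (12.5), a protocadherin, Kcnip4 (10.7), an auxiliary subunit of A-type potassium channels, and Nrg1 (10.6), the neuregulin ligand of ErbB receptors. For Tenm3 the ratio was 26.3, 17.0, 8.74 and 5.41 at E19, P4, P8 and P21, and the highest nucleus had 86, 80, 42 and 30 UMIs. Il1rapl2 (10.2), a synaptic membrane protein of the interleukin-1 receptor family, differed in kind: it had a UMI in 24.7%, 29.0%, 41.5% and 29.6% of EN4 nuclei, but up to 22, 13, 33 and 21 UMIs in a single one. EN3, the second most like subtype, was the highest other subtype for Il1rapl2, with 1015 to 1680 CPM against 233 to 344 CPM in EN4.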

How the data were processed

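Nuclei of superior colliculus were profiled with 10x Genomics 3′ v3 chemistry, 1 library of pooled tissue per stage. The authors processed the reads with Cell Ranger 3.0.2 and a pre-mRNA reference made from mm10, per the submitters' processing notes and the labels' protocols. For how nuclei were filtered, integrated and named, the tools are not given in the sources used here. UMI counts, as deposited by the authors, covered 31053 genes in 9724 nuclei, with no count model applied. Stage and subtype came from the deposited table of nuclei, whose percent columns (mitochondrial and ribosomal UMIs) are the authors' and entered no comparison. Of its columns, 4 with values per nucleus were not used. The labels' protocol gives the embryonic stage as E19 with E10 in brackets, and E19, the title and stage label, was used.

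UMIs were summed per subtype and library and scaled to CPM, with 5 CPM added before log2. Library totals were 19277512 (E19), 23579145 (P4), 27436259 (P8) and 31325079 (P21) UMIs. Subtypes with under 20 nuclei in a library were left out there. No doublets were removed. Shares have 95% Clopper-Pearson intervals and counts exact Poisson intervals, and the floor for 0 counts was 3 UMIs. For detection, nuclei were thinned to 4000 UMIs and shallower ones left out. In data simulated for 31053 genes, genes changed 4-fold were called in 100% of cases, and genes changed 1.5-fold and unchanged genes in 0%. The simulation held counting noise alone, gave all subtypes the same starting profile and changed only abundant genes. It had no spread between nuclei, subtypes or libraries, so it checks the calculation and cannot show how often calls in these data are false. Of the gene IDs, 31011 were found in GENCODE M21 (GRCm38), the source of gene coordinates.

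Genes were named by rank: 12 highest and 8 lowest in EN4, 4 rises and 4 falls per stage comparison, 4 in each direction for differences in change and against each of the 3 most like subtypes, 6 most variable, 3 per list and direction, and all markers. The rest of the called genes were named after their values were seen. The members and lists were chosen with earlier results of these data known. Alternatives were another scaling, pseudocount, filter and weighting, thinning, and leaving out possible doublets, clusters or subtypes. Python 3.11.15, numpy 2.4.6, scipy 1.17.1, pandas 2.3.3 and matplotlib 3.10.9 were used. Results for some genes are not reported here.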

Additional observations from a re-analysis of the deposited data

Results flagged for a closer look

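For Bmpr1b EN4 went the opposite way from the mean of the other excitatory subtypes between E19 and P21, and the difference was not tested, since each stage is 1 library. Its log2 ratio of P21 to E19 was 1.00 in EN4 and -1.09 in the mean of the others. That mean held 12 subtypes at E19 and 10 at P21, and the part of this difference in the ratio was not tested. Of the 10 other subtypes with at least 20 nuclei at both stages, EN6 (2.12) was the single one with a rise, from 4.96 to 38.3 CPM.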

How the results depend on the processing

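Each stage is 1 library, so counting intervals hold no variation between animals or dissections, and the depth of the EN4 profiles (563588 UMIs at the lowest) limits what low genes can show. No paired analysis was possible because each stage has 1 library and no test was made. No gene value past 2-fold that was followed under the alternatives changed sign. Followed were all genes called against the other subtypes and, for stage ratios, the genes named by rank, list or flag. The rest of the genes called between stages were not followed one by one. The balance of higher and lower genes turned in 3 cases: from E19 to P21 with median-of-ratios scaling (258 and 252, against 221 and 281), and from E19 to P4 with thinning and with the lower filter (against 34 and 37). Values for single genes were sorted by the size of their shift, which does not say if they stayed past 2-fold. A ratio to the other subtypes counted as unmoved if its mean shifted by no more than its standard deviation over libraries. A stage ratio counted as unmoved if it shifted by no more than the distance from the middle to an end of its counting interval. By these rules 1921 values stayed and 111 moved. With only EN4 nuclei of cluster 12, an alternative chosen after seeing the data, the E19 share was 4.04% of excitatory neurons against 5.83%. With no filter on low values, 63 genes were lower than in the other subtypes, against 38. With 20 CPM added, 21 genes were higher at P4 than at E19, against 34. With a filter of 20 CPM, which tests more low genes, the numbers higher and lower were 264 and 250 from E19 to P4, 64 and 160 between P4 and P8, 290 and 331 between P8 and P21, and 719 and 1022 from E19 to P21. With thinned nuclei, which hold fewer UMIs, they were 66 and 61 from E19 to P4 (23 and 27 shared with the unthinned calls), 23 and 57 between P4 and P8, and 110 higher at P21 than at P8. Correlations with EN1, EN3 and EN2 were 0.965, 0.961 and 0.950 with 20 CPM added and 0.949, 0.941 and 0.929 by rank, in the same order.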
